A study of Mus musculus with 6 samples.

Results

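Mitochondrial carriers move metabolites across the mitochondrial membranes, and 44 genes of this group were read in sorted kidney cells of Trf1+/+ and Trf1flox/flox mice, the latter carrying floxed alleles of the gene for the telomere protein TRF1. The group was chosen by symbol, as every gene named Slc25a followed by a number (39 genes) together with Ucp2, Mpc1, Mpc2, Mtch1 and Mtch2, out of the 12125 genes listed in the table. The annotation holds 52 genes that match, and the other 8 were not analysed here. The inner mitochondrial membrane lets few solutes through, and proteins of the SLC25 family exchange nucleotides, phosphate, carboxylates, amino acids and cofactors across it. Their genes lie in the nucleus, and the proteins are made in the cytosol and inserted into the inner membrane by the TIM22 complex. Mpc1 and Mpc2 encode the pyruvate carrier, which has another fold, and the products of Mtch1, Mtch2 and Slc25a46 are SLC25 relatives of the outer membrane. Kidney tubule cells, above all those of the proximal tubule, are rich in mitochondria, which supply ATP for the reabsorption of salt and solutes.

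The study compared 3 Trf1+/+ with 3 Trf1flox/flox mice, and 1 library was made for each mouse. All 6 mice carried Col1a2-CreERT2, a Cre recombinase that the promoter of a fibroblast collagen gene drives and that tamoxifen activates. They also carried KFP, a red fluorescent protein that Cre switches on. Males and females aged 6 to 8 weeks received tamoxifen intraperitoneally 3 times a week for 8 weeks, and cells were then sorted from the kidney by CD29, a surface integrin, and KFP. The study's scheme names CD29+, CD29+ KFP+ and KFP+ cells, and which of these were sequenced is not stated in the sources used here. The sex of each mouse is not given in the sources used here. The poly(A) RNA of 500 cells per library was reverse transcribed from an oligo(dT) primer with template switching, and the cDNA was amplified by PCR. The values are normalized counts, that is, reads per gene divided by 1 size factor per library. The replicate numbers follow the order of deposit and pair no mice.

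The libraries held between 10263382 and 12248797 reads on the listed genes, and 1 read was worth 0.689 to 1.09 normalized counts. Terf1, which encodes TRF1, had 0.891, 253 and 235 normalized counts in replicates 1 to 3 of Trf1+/+ and 110.0, 7.65 and 12.4 in replicates 1 to 3 of Trf1flox/flox. The groups overlapped, with a log2 fold change of -1.045 (standard error 2.63, limma unadjusted p = 0.698, adjusted p = 0.985). A count of 1 read does not match the label of Trf1+/+ replicate 1, which is called the library labelled Trf1+/+ replicate 1 here. This library also had the lowest median normalized count, 13.4 against 118 to 148 in the others. At most 3 reads were found there for 34.4% of all tested genes, against 2.48% to 20.0% in the others. The 1 read of Terf1 therefore does not settle its genotype. The value of 110.0 in Trf1flox/flox replicate 1 was above those of the other Trf1flox/flox libraries and below those of Trf1+/+ replicates 2 and 3. The cells are labelled fibroblasts, but 2 of 16 fibroblast markers were listed. Of these, Col1a2 had between 0 and 1.78 normalized counts, and Dcn was at 0 in 2 libraries and at 97.3 in the highest. All 15 markers of the proximal tubule were listed, with sums of 87985 to 317764 in Trf1+/+ and 99858 to 327540 in Trf1flox/flox libraries, and all 7 of the loop and distal tubule summed to between 56129 and 138762. All 9 collecting duct markers were listed (sums of 803 to 19526), as were 2 of 9 endothelial (1.72 to 307), 0 of 5 podocyte, 6 of 12 immune (172 to 2574) and 5 of 5 red blood cell markers (121 to 52403). Among the sex-linked genes, Xist had 0, 0.829 and 0.985 normalized counts with the Trf1+/+ genotype, compared with 1566, 55.7 and 0 in Trf1flox/flox, and Ddx3y had normalized counts of 997, 602 and 781 in Trf1+/+ and of 0, 116 and 291 in Trf1flox/flox libraries. No Trf1+/+ library had more than 1 read of Xist, which is transcribed from the inactive X chromosome, and Trf1flox/flox replicate 1 had none of the Y-linked Ddx3y. Eif2s3y had 942, 1060 and 1376 in Trf1+/+ and 0.859, 1138 and 397 in Trf1flox/flox libraries. For Uty the values were 52.6, 159 and 321 against 2.58, 7.65 and 48.2, and Kdm5d ranged from 0.891 to 161 and from 2.19 to 214. Sex was not fitted, and its part in the differences between the genotypes was not tested. In such bulk samples, fewer cells of a type and less RNA per cell cannot be told apart.

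Slc25a33, a pyrimidine nucleotide carrier, was higher in every Trf1flox/flox library than in any Trf1+/+ library, and for each of the other tested carriers the groups overlapped. Of the 44 genes, 40 reached 10 normalized counts in 3 or more of the libraries and were tested with limma on log2(normalized count + 1) over 9966 genes in all. Slc25a53, Slc25a24, Slc25a40 and Slc25a22 did not pass this filter. Slc25a33 passed it through the Trf1flox/flox libraries alone, so it had to differ between the groups in order to be tested. No carrier had an adjusted p under 0.05 (Benjamini-Hochberg, limma), and neither did any other gene (0.0% of 9966). At an unadjusted p under 0.05 limma called 1 carrier of 40, and 3.13% of all genes. The Trf1flox/flox libraries lay all above or all below the Trf1+/+ libraries for 1 carrier (2.5%), against 8.68% of all genes, of which 5.35% were above and 3.33% below. The edgeR quasi-likelihood test on the recovered reads called no carrier at an adjusted p under 0.05 and 1 at an unadjusted p under 0.05, while it called 196 genes in all at the unadjusted threshold. DESeq2 called 1 carrier, Slc25a33, at an adjusted p under 0.05, and 0.617% of the 9407 genes to which it gave an adjusted p.

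By direction, 17 of the tested carriers were higher and 23 lower in Trf1flox/flox libraries, so that 42.5% were higher, compared with 55.9% of all tested genes. Their median log2 fold change was -0.20, that of all tested genes was 0.20, and the largest values were -3.80 and 6.91. The sign of this median depended on the scaling and on the libraries. After scaling to the same upper quartile, which moved the median of all genes to 0.44, the carriers' median was 0.08, with 23 higher and 17 lower. Without the library labelled Trf1+/+ replicate 1 the median was -0.13 (18 higher and 22 lower) against -0.03 for all genes. Without Trf1flox/flox replicate 2 it was 0.04. The plot of fold changes shows the carriers with their standard errors.

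**Figure D1:**
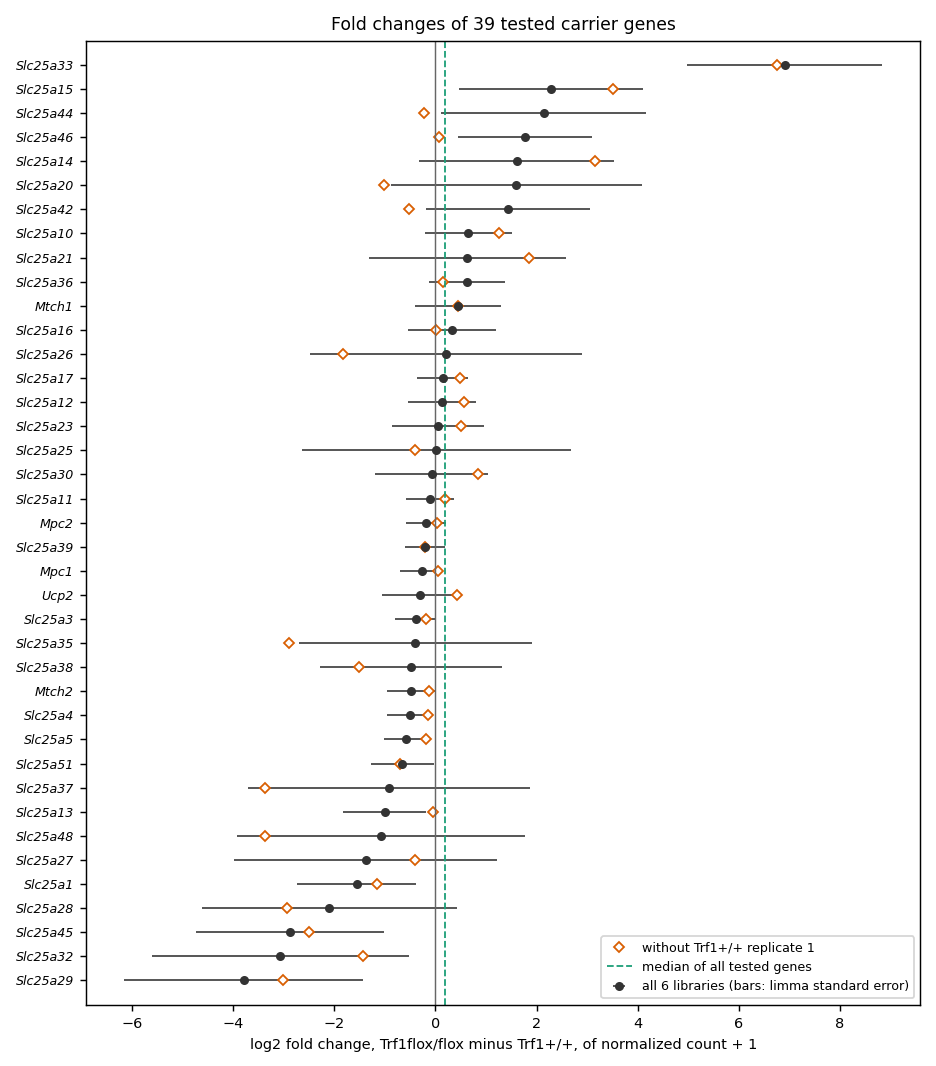
Log2 fold change of 39 of the 40 tested carriers (x axis, Trf1flox/flox minus Trf1+/+ on log2(normalized count + 1)); filled points and bars are the estimate and limma standard error from 6 libraries, open diamonds the estimate without the library labelled Trf1+/+ replicate 1, and the dashed line the median of all tested genes (0.20). Slc25a33 stands at 6.91, and the next highest carrier is Slc25a15 at 2.29 with a standard error of 1.82.

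Slc25a33 (ENSMUSG00000028982, chromosome 4, 149744036 to 149774277 on GRCm38, minus strand) encodes a carrier of pyrimidine nucleotides, the building blocks of mitochondrial DNA and RNA. It had 234, 132 and 101 normalized counts in the Trf1flox/flox libraries, against 0, 0.829 and 0 for Trf1+/+. The Trf1+/+ libraries together held 1 read of it and the Trf1flox/flox libraries 539, so every Trf1flox/flox library lay above every Trf1+/+ library. The ratio of the summed reads, corrected for the size factors, was 511 (exact 95% interval 91.3 to 20210.0, counting error only), and leaving out the library labelled Trf1+/+ replicate 1 gave 339 (60.6 to 13420.0). The log2 fold change was 6.91 with a standard error of 1.93 (limma unadjusted p = 0.00394, adjusted p = 0.970), and DESeq2 gave an adjusted p of 0.00758. Under the alternatives run for it the adjusted p lay between 0.00758 and 0.9996. The fitted fold change lay between 3.93 (pseudocount 10) and 8.93 (DESeq2), since with 1 read in a group it depends on what is added to the counts. Slc25a33 passed the filter on low values through the Trf1flox/flox libraries alone, so a gene of this kind had to differ in order to be tested.

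The reads of Slc25a33 can be shared with another transcript. An antisense gene on the plus strand, Gm13068, covers 281 bases or 14.9% of its exon length, and 12.6% of the 50-base windows of its principal transcript also occur in that gene. The libraries were not directional and Gm13068 was not analysed here, so reads of the overlap cannot be told apart by strand. Trac, the constant region of a T cell receptor chain and 1 of the 6 listed immune markers, had 0, 0 and 0 normalized counts in replicates 1 to 3 of Trf1+/+ and 172, 216 and 61.3 in replicates 1 to 3 of Trf1flox/flox, in the same order of genotypes as Slc25a33. Trac likewise passed the filter on low values through the Trf1flox/flox libraries alone. The other listed immune markers did not follow this order. Lyz2 (377) and C1qc (188) were found in Trf1+/+ replicate 2 alone, and C1qb was at 0 in all 6 libraries. Cd74 had 317, 903 and 0 in Trf1+/+ and 0, 77.6 and 2513 in Trf1flox/flox libraries. Csf1r had 0, 2.49 and 280 in Trf1+/+ and 0, 260 and 0 in Trf1flox/flox libraries. The immune markers in sum ranged from 280 to 1471 in Trf1+/+ and from 172 to 2574 in Trf1flox/flox libraries. The part of such cells in the result was not tested. Among the tubule markers, the groups did not overlap for 1 of 15 proximal and 2 of 7 loop and distal genes. Slc22a8 (proximal) ranged from 710 to 1264.5 in Trf1flox/flox libraries, above the highest Trf1+/+ value of 636. Slc12a3 and Calb1 were lower in every Trf1flox/flox library. Their highest Trf1flox/flox values were 18752 and 11124, below the lowest Trf1+/+ values of 25899 and 11368. The part of tubule cells was not tested either. The 250 bases before the start of Slc25a33 in RefSeq (chr4:149774268-149774517, GRCm38.p6, minus strand) are shown because it was the single carrier whose groups did not overlap. The capitals mark a CCAAT box and an E-box (CACGTG), and 64.4% of its bases are G or C. The last bases of this window, with the E-box, lie inside the GENCODE span of the gene given above, because the RefSeq start differs from it.
Slc25a33 upstream window: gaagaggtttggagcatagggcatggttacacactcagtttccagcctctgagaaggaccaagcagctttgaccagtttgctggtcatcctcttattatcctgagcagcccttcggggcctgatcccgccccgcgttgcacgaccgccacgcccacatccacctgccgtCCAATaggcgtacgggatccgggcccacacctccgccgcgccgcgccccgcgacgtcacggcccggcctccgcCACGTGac

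Slc25a36, which also carries pyrimidine nucleotides, had means of 511 ± 368 and 695 ± 252 (SD, n = 3 each), and its lowest library had 225. Over the 35 carriers with a RefSeq promoter, 47 windows of 250 bases were searched on both strands for 5 letter strings that do not contain each other. CCAAT was found in 44.7% of the carrier windows and 33.9% of 32851 windows of all genes, CACGTG in 14.9% and 6.02%, the ETS motif CCGGAAG in 14.9% and 6.91%, the motif of NRF1 in 4.26% and 3.74%, and TATAAA in 2.13% and 12.4%. The median share of G and C was 60.0% in the carrier windows and 52.4% in all windows. A match in letters is a description of the window, not a binding site.

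The adenine nucleotide and phosphate carriers, which bring ADP and phosphate to the ATP synthase and take ATP out, held the most counts of the group. Slc25a5 and Slc25a4 encode adenine nucleotide translocases and Slc25a3 the phosphate carrier. Slc25a5 (ENSMUSG00000016319, chromosome X, 36795651 to 36798807) had 78473, 45826 and 26941 normalized counts with the Trf1+/+ genotype, compared with 34623, 28725 and 29094 in Trf1flox/flox. The library labelled Trf1+/+ replicate 1 was the highest and Trf1+/+ replicate 3 the lowest, with all Trf1flox/flox libraries between them. The log2 fold change was -0.58 (standard error 0.44), with means of 50413 ± 26070 for Trf1+/+ and 30814 ± 3304 for Trf1flox/flox (SD, n = 3 each). Slc25a5 lies on the X chromosome, and the Xist and Ddx3y values given above differ between the libraries; their part in its level was not tested. Slc25a3 (chromosome 10, 91116574 to 91124059) had normalized counts of 17370.5, 15379.8 and 8505 in Trf1+/+ and of 10956, 10354 and 8847 in Trf1flox/flox libraries, with a log2 fold change of -0.39 (standard error 0.40). Slc25a4 (chromosome 8, 46206797 to 46211284) had means of 11077 ± 5543 and 7125 ± 985 (SD, n = 3 each).

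The libraries stood in a like order for these 3 genes, with the library labelled Trf1+/+ replicate 1 highest, Trf1+/+ replicate 2 next and Trf1+/+ replicate 3 lowest. Without Trf1+/+ replicate 3 all 3 had Trf1+/+ libraries above all Trf1flox/flox libraries, as groups then did not overlap for 22.5% of tested carriers and 24.4% of all genes. The unadjusted p of Slc25a5 and Slc25a4 was then under 0.05 in limma, as it was for 6.52% of all genes. Of the carriers that use calcium to exchange ATP-magnesium for phosphate, Slc25a23 was measured in all 6 libraries, with group means of 312 ± 186 and 297 ± 95.1 (SD, n = 3 each), and Slc25a25 ranged from 0 to 284. Slc25a24 was at 0 in 5 libraries and had 40.7 in Trf1flox/flox replicate 3, and Slc25a53, grouped here by its place in the list, ranged from 0 to 30.3.

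Slc25a5 and Slc25a4 are paralogs, and Slc25a5-ps on chromosome 14 is a pseudogene copy of Slc25a5, so their sequences bear on how reads are assigned. Over the coding bases that align, Slc25a5 was identical to Slc25a4 at 701 of 891 bases (78.7%) and to Slc25a5-ps at 788 of 831 (94.8%). A stretch of 90 coding bases (66 to 155, counted from the first base of the coding sequence of Slc25a5, transcripts of GENCODE vM21) is shown so that the difference can be seen. The capitals mark bases that differ from Slc25a5, 5 in the copy and 12 in Slc25a4.
Slc25a5: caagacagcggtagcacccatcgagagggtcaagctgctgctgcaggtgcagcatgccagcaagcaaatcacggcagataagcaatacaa
Slc25a5-ps: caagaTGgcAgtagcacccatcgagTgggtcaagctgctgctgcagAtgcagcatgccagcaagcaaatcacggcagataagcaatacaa
Slc25a4: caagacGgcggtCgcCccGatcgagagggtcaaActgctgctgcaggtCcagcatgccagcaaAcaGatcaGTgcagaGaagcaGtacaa

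In all, 46.6% of the 50-base windows of the principal transcript of Slc25a5 also occurred in 9 other annotated genes, and none of those of Slc25a4 did. Gm5560 shared the most, 29.1% of the windows of Slc25a5. Reads in such windows fit more than 1 gene, and how they were counted was not examined. The level of Slc25a5 is uncertain to that extent. Slc25a5-ps had 22.3, 14.2 and 44.1 normalized counts in the Trf1flox/flox libraries, against 71.3, 87.8 and 54.2 for Trf1+/+, and Slc25a5 had 497 to 2022 times as many counts in each library. Per kilobase of principal transcript, the ratio of Slc25a5 to Slc25a4 was 7.47, 6.10 and 7.94 in the Trf1+/+ and 6.52, 6.64 and 7.04 in the Trf1flox/flox libraries. The means of this ratio were 7.17 ± 0.956 in Trf1+/+ and 6.73 ± 0.274 in Trf1flox/flox libraries (SD, n = 3 each). They differed by less than the SD of Trf1+/+ but by more than that of Trf1flox/flox. An exact two-sided permutation test gave p = 0.6, where 0.1 is the smallest value that 3 against 3 libraries allow.

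Coenzymes, cofactors and nucleotides are carried by 9 of the listed genes, all of them tested, and 6 were higher and 3 lower in Trf1flox/flox libraries with a median log2 fold change of 0.21. This median was -0.06 in edgeR, -0.11 without Trf1+/+ replicate 3, 0.53 without Trf1+/+ replicate 2 and 0.02 without the library labelled Trf1+/+ replicate 1. Slc25a17, the carrier of coenzyme A and related cofactors of the peroxisome, had 2811, 1612 and 1222 normalized counts in replicates 1 to 3 of Trf1+/+ and 2337, 2159 and 1473 in replicates 1 to 3 of Trf1flox/flox. These ranges overlapped, with a log2 fold change of 0.14 (standard error 0.50). Slc25a51, the NAD carrier, had group means of 1110 ± 126 and 797 ± 426 (SD, n = 3 each). Slc25a32, which carries folate or FAD, had 1284, 4.97 and 315 normalized counts with the Trf1+/+ genotype, compared with 30.9, 2.19 and 39.3 in Trf1flox/flox. Its log2 fold change was -3.07 (standard error 2.54), its Trf1+/+ values ran from 4.97 to 1284, and the value was -1.44 without the library labelled Trf1+/+ replicate 1 and -5.32 without Trf1+/+ replicate 2. DESeq2 gave an unadjusted p of 0.00383 and an adjusted p of 0.261. Slc25a16 and Slc25a42, both linked to coenzyme A, had Trf1+/+ means of 453 ± 433 and 314 ± 339 and Trf1flox/flox means of 434 ± 106 and 319 ± 145 (SD, n = 3 each). Slc25a26, which imports S-adenosylmethionine, ranged from 0 to 108 and from 0 to 116.

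Among the carboxylate and pyruvate carriers, 2 of the 6 tested genes were higher and 4 lower, with a median of -0.15 that became positive with upper quartile scaling (0.13) and without the library labelled Trf1+/+ replicate 1 (0.12). Mpc1 (chromosome 17, 8282904 to 8297661) and Mpc2 (chromosome 1, 165460637 to 165481214) encode the subunits of the carrier that brings pyruvate to the citric acid cycle. Mpc1 had normalized counts of 17681, 11265 and 7037 in Trf1+/+ and of 8712, 9371 and 9685 in Trf1flox/flox libraries. Mpc2 had 8119, 10175 and 11373 normalized counts in the Trf1flox/flox libraries, against 15067, 11943 and 7703 for Trf1+/+. The Trf1flox/flox libraries lay inside the range of the Trf1+/+ libraries for both, and both log2 fold changes, -0.28 for Mpc1 (standard error 0.42) and -0.19 for Mpc2 (standard error 0.40), changed sign with upper quartile scaling and without the library labelled Trf1+/+ replicate 1. Per kilobase the subunits were close to each other, with a ratio of Mpc1 to Mpc2 of 1.26, 1.01 and 0.977 in Trf1+/+ and 1.15, 0.985 and 0.911 in Trf1flox/flox libraries (exact two-sided permutation test, p = 0.6). However, 44.2% of the 50-base windows of Mpc1 occurred in other genes, most of them in Mpc1-ps, and 23.1% of its exon length overlaps 4930506C21Rik on the opposite strand, so the level of Mpc1 is uncertain. Slc25a11, the oxoglutarate carrier of the malate-aspartate shuttle, had means of 2531 ± 980 and 2286 ± 597 (SD, n = 3 each). Slc25a10, the dicarboxylate carrier, ranged over the 6 libraries from 128 to 1293, and Slc25a21, a carrier of oxodicarboxylates, from 4.14 to 411. Slc25a1, the citrate carrier, had 1153, 652 and 387 normalized counts in replicates 1 to 3 of Trf1+/+ and 27.5, 931 and 428 in replicates 1 to 3 of Trf1flox/flox. Trf1flox/flox replicate 1 stood far below the others, and without it the log2 fold change of -1.56 (standard error 1.19) was -0.07.

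Of the carriers of amino acids, carnitine and glutathione, 12 were listed and 10 tested, with 4 higher, 6 lower and a median of -0.35, which lay between -0.62 (without the library labelled Trf1+/+ replicate 1) and -0.03 (without Trf1flox/flox replicate 2) when single libraries were left out. Slc25a39, needed for mitochondrial glutathione import, had 5339, 5386 and 5120.0 normalized counts with the Trf1+/+ genotype, compared with 3482, 5478 and 4981 in Trf1flox/flox. It varied least among the carriers (SD within genotype 0.25 on the log2 scale), and its log2 fold change of -0.21 (standard error 0.39) changed sign with upper quartile scaling. Slc25a13, the aspartate-glutamate carrier citrin, had normalized counts of 4216, 761 and 416 in Trf1+/+ and of 439, 569 and 656 in Trf1flox/flox libraries. A single library, labelled Trf1+/+ replicate 1, was more than 5 times as high as any other, and the log2 fold change of -1.01 (standard error 0.82) was -0.04 without it. The ratio per kilobase of Slc25a13 to its paralog Slc25a12, whose group means were 649 ± 379 and 645 ± 90.1 (SD, n = 3 each), was 7.91, 3.33 and 2.13 in Trf1+/+ and 1.25, 1.72 and 2.45 in Trf1flox/flox libraries (4.46 ± 3.05 against 1.81 ± 0.609, exact two-sided permutation test, p = 0.2).

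The amino acid carriers with the largest log2 fold changes each had 1 library at 0, 1 or 2 reads. Slc25a29, a carrier of basic amino acids, had 64.4, 0 and 55.1 normalized counts in the Trf1flox/flox libraries, against 624, 455 and 33.5 for Trf1+/+. It was lower in Trf1flox/flox libraries by the means, with a log2 fold change of -3.80 (standard error 2.36, limma adjusted p = 0.970), but Trf1+/+ replicate 3 lay among the Trf1flox/flox values, and leaving out single libraries gave -5.11 to -1.82. Slc25a45 had 944, 284 and 636 normalized counts in replicates 1 to 3 of Trf1+/+ and 899, 1.09 and 229 in replicates 1 to 3 of Trf1flox/flox. Its log2 fold change was -2.88 (standard error 1.87), and it was -0.29 without Trf1flox/flox replicate 2, which had 1 read. Slc25a15, the ornithine carrier of the urea cycle, had 529, 1.66 and 639 normalized counts with the Trf1+/+ genotype, compared with 343, 399 and 758 in Trf1flox/flox. The log2 fold change of 2.29 (standard error 1.82) was -0.31 without Trf1+/+ replicate 2, which had 2 reads. For Slc25a44, the carrier of branched-chain amino acids, the values were normalized counts of 0.891, 408 and 165 in Trf1+/+ and of 301, 260.1 and 138 in Trf1flox/flox libraries. Its log2 fold change of 2.14 (standard error 2.02) was -0.23 without the library labelled Trf1+/+ replicate 1, where 1 read was found. Slc25a20, which exchanges carnitine and acylcarnitine in fatty acid oxidation, and Slc25a38, a glycine carrier, ranged over the 6 libraries from 0 to 469 and from 23.2 to 225. Slc25a48 ranged from 0 to 312, and Slc25a40, which like Slc25a39 serves glutathione import, from 0 to 146. Slc25a22, a glutamate carrier, was found in 2 libraries, with 98.0 and 55.8 normalized counts in Trf1flox/flox replicates 1 and 3.

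The mitoferrins bring iron to the matrix for heme and iron-sulfur clusters. Slc25a37, mitoferrin 1, had 0.859, 169 and 86.1 normalized counts in the Trf1flox/flox libraries, against 0.891, 312 and 312 for Trf1+/+. In each genotype it was at 1 read in replicate 1 and clearly above 0 in the other libraries. The red blood cell markers summed to 238, 2150 and 10472 in Trf1+/+ and 121, 285 and 52403 in Trf1flox/flox libraries, lowest in both genotypes where Slc25a37 was lowest. In the other libraries the order was not shared. Trf1flox/flox replicate 3 was above replicate 2 in these markers and below it in Slc25a37, and Trf1+/+ replicates 2 and 3 differed in the markers alone. The part of red blood cells in the level of Slc25a37 was not tested. Slc25a28, mitoferrin 2, had 24.9, 143 and 156 normalized counts in replicates 1 to 3 of Trf1+/+ and 181, 0 and 40.0 in replicates 1 to 3 of Trf1flox/flox, with a log2 fold change of -2.10 (standard error 2.52) that was 0.05 without Trf1flox/flox replicate 2.

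The uncoupling protein branch comprises carriers related to the proton leak protein of brown fat. Ucp2 had 2048, 484 and 414 normalized counts with the Trf1+/+ genotype, compared with 446, 791 and 611 in Trf1flox/flox. The library labelled Trf1+/+ replicate 1 was the highest, and the log2 fold change of -0.31 (standard error 0.74) was 0.42 without it. Slc25a30, known as a kidney mitochondrial carrier, had normalized counts of 2873, 688 and 269 in Trf1+/+ and of 148, 3541 and 868 in Trf1flox/flox libraries. The highest and the lowest value of Slc25a30 were both in Trf1flox/flox libraries, and its log2 fold change of -0.07 (standard error 1.11) changed sign with upper quartile scaling, edgeR and DESeq2. Slc25a14, on the X chromosome, had 157, 335 and 122 normalized counts in the Trf1flox/flox libraries, against 527, 2.49 and 124 for Trf1+/+. Its log2 fold change was 1.61 (standard error 1.93), but -0.06 in DESeq2 and -0.46 without Trf1+/+ replicate 2. Slc25a27 ranged from 13.3 to 283 in Trf1+/+ and from 0 to 277 in Trf1flox/flox libraries.

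Of the relatives in the outer membrane, Mtch2, which inserts proteins into that membrane, had 5398, 2705 and 2319 normalized counts in replicates 1 to 3 of Trf1+/+ and 2127, 2875 and 2002 in replicates 1 to 3 of Trf1flox/flox. The log2 fold change was -0.49 (standard error 0.47), or -0.12 when the library labelled Trf1+/+ replicate 1 was left out. Mtch1 had means of 321 ± 188 and 396 ± 94.7 (SD, n = 3 each). Slc25a46, a protein of mitochondrial shape and fission, had 14.3, 704 and 392 normalized counts with the Trf1+/+ genotype, compared with 1086, 384 and 400.4 in Trf1flox/flox, with a log2 fold change of 1.77 (standard error 1.33) that was 0.07 without the library labelled Trf1+/+ replicate 1. Slc25a35, which has no settled substrate, had normalized counts of 3.56, 1046 and 673 in Trf1+/+ and of 640.1, 5.46 and 339 in Trf1flox/flox libraries. It had the widest spread of all carriers, 3.99 on the log2 scale within genotype, with 1 low library in each group. A plot of the carriers in every library shows these patterns side by side.

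**Figure D2:**
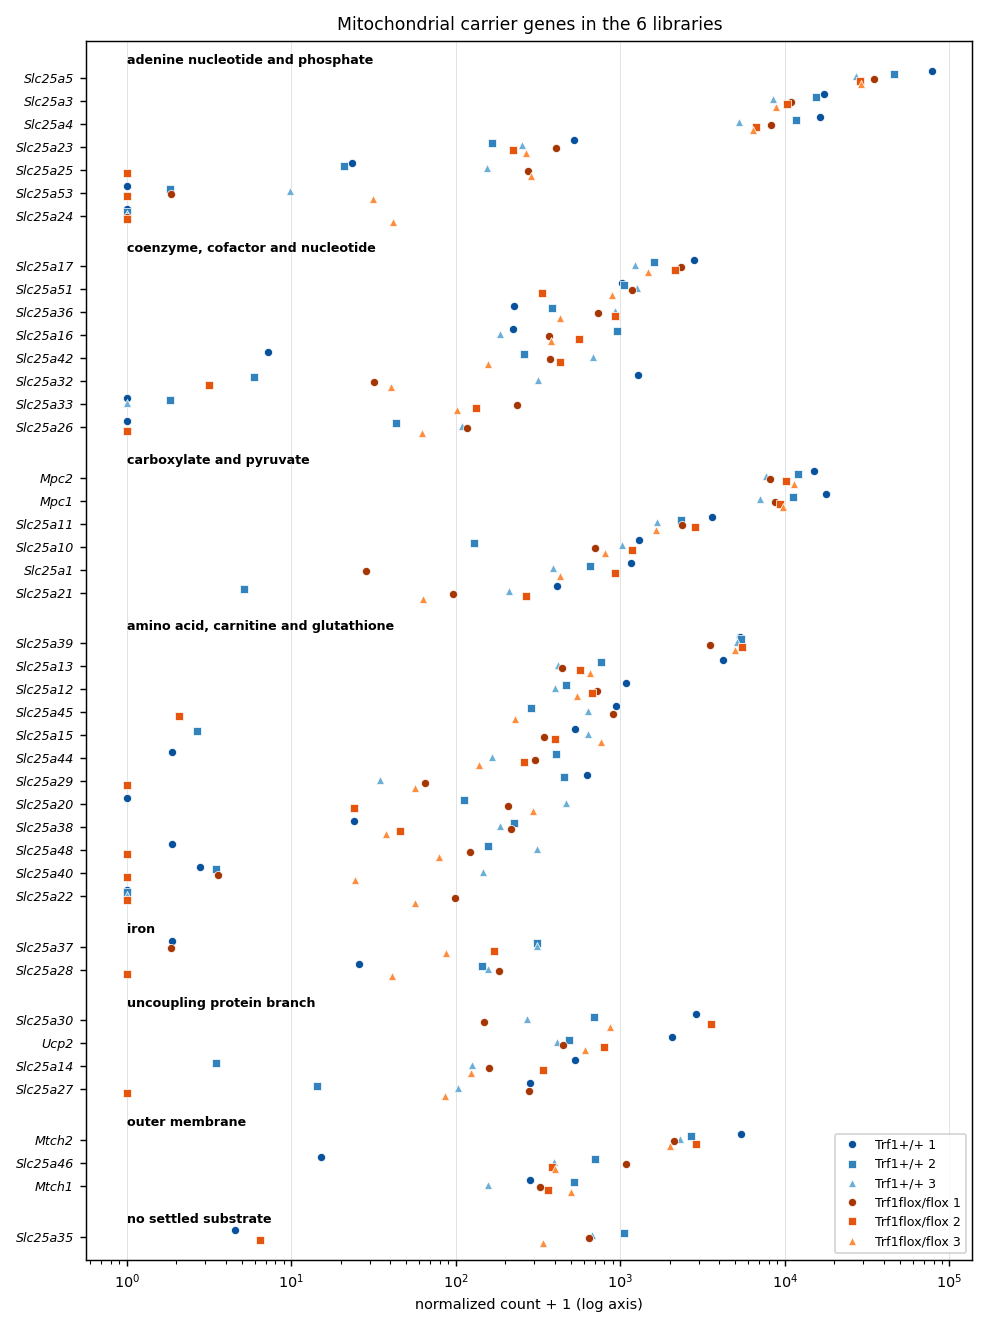
Normalized count plus 1 (x axis, log scale) of 43 of the 44 listed carriers in the 3 Trf1+/+ (blue) and 3 Trf1flox/flox (orange) libraries, grouped by substrate; the points of a gene are set slightly apart in height. Slc25a33 is the only tested carrier whose blue and orange points do not overlap. Slc25a5, the most abundant carrier, runs from 26941 to 78473 normalized counts.

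Summed over the 44 genes, the carriers took 1.70%, 1.23% and 0.770% of all listed counts in the Trf1+/+ and 1.04%, 0.749% and 1.22% in the Trf1flox/flox libraries. The means were 1.23 ± 0.463 and 1.00 ± 0.236 (SD, n = 3 each), and the Trf1+/+ mean was 0.999 without the library labelled Trf1+/+ replicate 1. The difference was thus smaller than the spread between mice. Slc25a5, Slc25a3, Mpc2, Mpc1 and Slc25a4 together held 70.7% to 80.4% of the carrier counts in each library. The adenine nucleotide and phosphate group held 49.8% to 61.2% of them and the carboxylate and pyruvate group 21.2% to 27.9%. The proximal tubule markers, summed in normalized counts and not as a share, were lowest in Trf1+/+ replicate 2 (87985) and Trf1flox/flox replicate 1 (99858). The carrier shares of these libraries were 1.23% and 1.04%. The 2 measures are on unlike scales, and the part of tubule content in the carrier share was not tested.

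**Figure D3:**
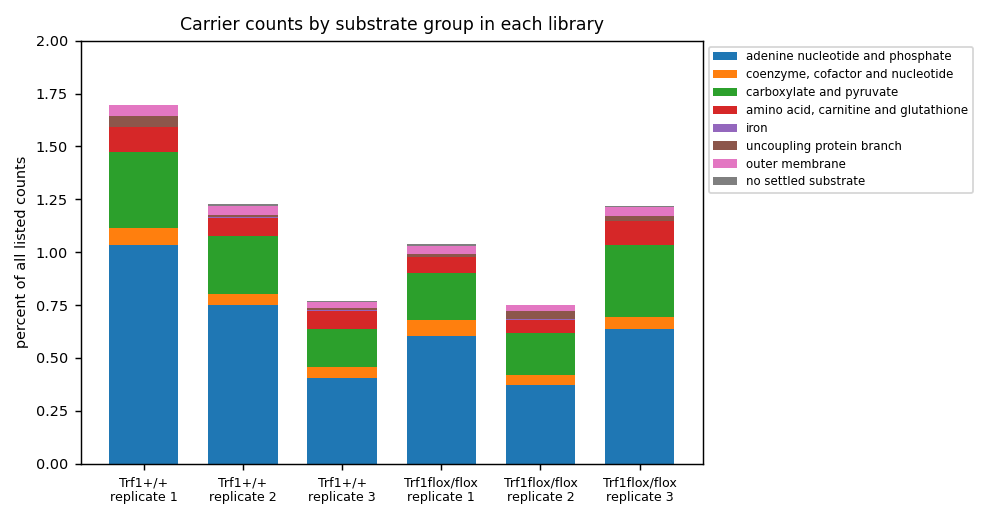
Summed counts of the carriers as a percent of all listed counts (y axis, from 0) in each of the 6 libraries (x axis), stacked by substrate group. The share runs from 0.749% in Trf1flox/flox replicate 2 to 1.70% in the library labelled Trf1+/+ replicate 1, and the adenine nucleotide and phosphate carriers are the largest block in every library.

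How far apart libraries of the same genotype lay depended on the level of the gene. The 12 tested carriers whose mean reached 1000 normalized counts had a median SD within genotype of 0.50 on the log2 scale, compared with 0.65 for the 1221 genes of that level. For the 14 carriers with a mean of 300 to 1000 the median was 1.13 (all genes 1.15), and for the 14 under 300 it was 3.07 (all genes 2.77). Of the 12 most abundant carriers 11 were lower in Trf1flox/flox libraries, as were 67.2% of all genes of that level, and without the library labelled Trf1+/+ replicate 1 the number was 6 of 12. No log2 fold change among these 12 exceeded 1.01 in size. In all, 26 of the 44 carriers had more than 3 reads in every library. At most 3 reads were found for 10, 7 and 3 carriers in the Trf1+/+ and for 4, 12 and 0 carriers in the Trf1flox/flox libraries. Among the tested carriers this share was 15.0% in the library labelled Trf1+/+ replicate 1 and 20.0% in Trf1flox/flox replicate 2, against 34.4% and 20.0% of all tested genes.

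**Figure D4:**
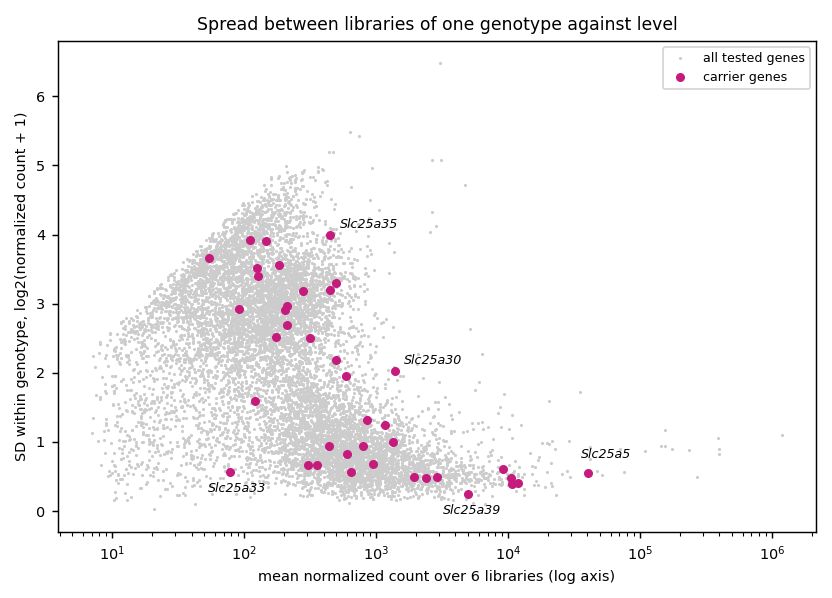
SD within genotype of log2(normalized count + 1) (y axis) against the mean normalized count over 6 libraries (x axis, log scale) for the 40 tested carriers (coloured) and all 9966 tested genes (grey). Slc25a39 has the smallest SD of the carriers (0.25) and Slc25a35 the largest (3.99), and carriers with a mean of at least 1000 have a median SD of 0.50.

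The machinery that inserts carriers, and other transport proteins of the mitochondrial membranes, were read beside them. Of 19 genes of carrier import, 18 were listed and tested. They include the TOM receptors and pore of the outer membrane, the small TIM chaperones and the TIM22 complex. Of these, 7 were higher and 11 lower in Trf1flox/flox libraries (median log2 fold change -0.24), and none had an unadjusted p under 0.05 in limma, edgeR or DESeq2 or groups that did not overlap, against 3.13% of all genes in limma and 8.68% for the overlap. The median was -0.0044 without the library labelled Trf1+/+ replicate 1 (9 higher and 9 lower) and 0.037 with upper quartile scaling (10 higher and 8 lower). Among 24 other transport genes, 22 were tested, with 10 higher, 12 lower and a median of -0.23. This median turned to 0.025 without the library labelled Trf1+/+ replicate 1 and to 0.049 with upper quartile scaling (11 higher and 11 lower each time). Vdac2, a porin of the outer membrane, had 2310.4, 1699 and 2990.0 normalized counts in the Trf1flox/flox libraries, against 11614, 4717 and 2964 for Trf1+/+. Its log2 fold change was -1.26 (standard error 0.53, limma unadjusted p = 0.0358, adjusted p = 0.970), though Trf1flox/flox replicate 3 was slightly above Trf1+/+ replicate 3. Sfxn5, a sideroflexin, had 477, 117 and 174 normalized counts in replicates 1 to 3 of Trf1+/+ and 49.8, 28.4 and 93.0 in replicates 1 to 3 of Trf1flox/flox. All its Trf1flox/flox values were below its Trf1+/+ values, with a log2 fold change of -2.05 (standard error 1.52, limma adjusted p = 0.970).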

How the data were processed

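Per the labels and the study's methods, the authors trimmed adaptor and poly(A) sequence, aligned the reads to GRCm38 with TopHat2 2.0.10, Bowtie 1.0.0 and SAMtools 0.1.19 and counted them on GENCODE vM20 genes with HTSeq 0.6.1; the submitters' processing notes name GRCm39 and DESeq2 as well. The deposited values are signal per gene, normalized counts of which 100% were whole multiples of 1 read (tolerance 0.01), so reads were recovered. The strand setting of the counting is not given in the sources used here.

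Groups follow the genotype labels, 3 libraries each. Genes that reached 10 normalized counts in 3 or more libraries were tested with limma 3.58.1 (R 4.3.3, mean-variance trend, pseudocount 1), adjusted by Benjamini-Hochberg over all of them. The alternatives were pseudocount 10, no filter, upper quartile (75th percentile) scaling, limma without the trend (added after the data were seen), edgeR 4.0.16 and DESeq2 1.42.0 on the recovered reads, and each library left out. The tests were tried on simulated reads with known fold changes. These reads varied less than the libraries here, so the trial does not show what could be detected in them. Coordinates and transcript lengths are from GENCODE vM21 (GRCm38), matched by symbol for 11911 of 12125 genes, and promoters from RefSeq (GRCm38.p6). Values per library were given for carriers with an unadjusted p under 0.05 or groups that did not overlap, the 5 largest fold changes in each direction and the 2 highest means of each substrate group; 1 carrier that the rule names is not reported here and is left out of the plots by gene, though it stays in the counts and sums. The members and lists were chosen with earlier results of these data known. The floor was set at 3 reads. Intervals and floors cover counting error only, since PCR reads without molecular identifiers are not independent molecules. Nothing says more of the libraries than that each came from a separate mouse.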

Additional observations from a re-analysis of the deposited data

How the results depend on the processing

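Of 22 carriers named by rule, 10 kept the sign of their log2 fold change under the alternatives run and 12 did not. With upper quartile scaling the values were 0.092 for Mpc2, 0.0033 for Mpc1, 0.068 for Slc25a39 and 0.20 for Slc25a30. Slc25a30 was 0.31 in edgeR and 0.28 in DESeq2, where Slc25a14 was -0.057. With each library left out in turn, the other sign appeared without the library labelled Trf1+/+ replicate 1 for Mpc2 (-0.45 to 0.030), Mpc1 (-0.61 to 0.055), Ucp2 (-0.73 to 0.42) and Slc25a44 (-0.23 to 3.65), and for Slc25a30 (-1.17 to 1.11, where 0.84 was the value without that library). It also appeared without Trf1flox/flox replicate 1 for Slc25a30. Without Trf1+/+ replicate 2 it did so for Slc25a15 (-0.31 to 3.65) and Slc25a14 (-0.46 to 3.16), and without Trf1+/+ replicate 3 for Slc25a17 (-0.12 to 0.48). Slc25a35 (-2.91 to 1.66) changed sign without Trf1+/+ replicate 2 (1.02), Trf1+/+ replicate 3 (0.70) or Trf1flox/flox replicate 2, Slc25a37 (-3.37 to 1.09) without Trf1+/+ replicate 2 or 3 (0.31 each) or Trf1flox/flox replicate 1, and Slc25a28 (-3.71 to 0.046) without Trf1flox/flox replicate 2.

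DESeq2 called 58 genes, 1 of them a carrier (Slc25a33), at an adjusted p under 0.05, where limma called 0, and 2 carriers (5.0%, all genes 4.11%) at an unadjusted p under 0.05, where limma called 1 (2.5%, all genes 3.13%). As given above, Slc25a33 passed the filter on low values through the Trf1flox/flox libraries alone, so it had to differ in order to be tested. Of the other transport genes, 6 were higher in Trf1flox/flox libraries in edgeR and in DESeq2 (limma 10). Upper quartile scaling gave a carrier median of 0.080 and 2 carriers whose groups did not overlap, Slc25a17 and Slc25a33 (5.0%, all genes 8.69%). With each library left out in turn, 1 to 3 carriers had an unadjusted p under 0.05 (3 or 7.5% without Trf1+/+ replicate 3, where 6.52% of all genes did, and 2 or 5.0% without Trf1+/+ replicate 2 and without Trf1flox/flox replicate 1, where 4.39% and 2.27% did), the median lay between -0.28 and 0.038, and 1 to 9 carriers had groups that did not overlap. There were 9 (22.5%) without Trf1+/+ replicate 3, where 24.4% of all genes did not overlap, and 5 (12.5%, all genes 17.9%) without the library labelled Trf1+/+ replicate 1. There were 4 (10.0%, all genes 18.9%) without Trf1+/+ replicate 2, 3 (7.5%, all genes 15.3%) without Trf1flox/flox replicate 1 and 4 (10.0%, all genes 15.2%) without Trf1flox/flox replicate 2. The causes of these shifts were not tested, and leaving out a library also makes its group smaller. No paired analysis was possible because the replicate numbers follow the order of deposit. With 3 mice a group, carriers under a mean of 300 normalized counts had a median SD of 3.07 on the log2 scale within genotype, which limits what could be detected for them.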
